A study of Mus musculus with 6 samples.

Results

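The genes described here are the 81 cytosolic ribosomal protein genes of the mouse, 31 of the small (40S) and 50 of the large (60S) subunit. They were chosen by symbol alone, as Rpl or Rps followed by digits and at most 1 lower-case letter, plus Rplp0, Rplp1, Rplp2 and Rpsa, from 27998 genes in the feature lists of the chow and DIO pools and 31053 in that of the OB pool. Rpl6l is in the first of these lists only, so 80 members could be compared between all 3 pools. The symbol rule leaves out Rps3a1, Rpl36al, Rpl22l1, Rpl7l1, and the fusion gene Fau, which also encode ribosomal proteins or close relatives of them, among others.

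A ribosome carries a single copy of nearly every one of these proteins, so cells make them in matched amounts. Their mRNAs belong to the 5′ terminal oligopyrimidine (TOP) class, which starts with a C followed by a run of pyrimidines and whose translation is switched by the kinase complex mTORC1 through the RNA-binding protein Larp1. Rapamycin inhibits mTORC1. The small-subunit protein Rps6 is phosphorylated by S6 kinases downstream of mTORC1, and its phosphorylated form is widely used in the hypothalamus as a mark of active neurons. RNA from nuclei shows the amount of transcript, and neither translation nor phosphorylation was measured.

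Hypothalamic nuclei enriched for the neuronal protein NeuN by sorting were profiled with 10x Genomics 3′ chemistry in 3 pools. The OB pool came from ob/ob mice, which lack leptin, on chow. The DIO pool came from mice with obesity induced by a high-fat diet, and the chow pool from chow-fed mice. In each pool, nuclei of rapamycin-treated and vehicle-treated mice carried different hashtag antibodies against the nuclear pore complex and were told apart by these tags. Strain, sex, age, dose, length of treatment and the number of mice behind each tag are not given in the sources used here, so each combination of pool and treatment is 1 sample. A comparison within a pool or between pools therefore has no replicates, and its 95% intervals cover counting error of unique molecular identifiers (UMIs, which count captured transcripts) only.

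After filtering, the OB pool held 12283 nuclei with a median of 2804.5 UMIs, the DIO pool 11405 with 5572, and the chow pool 10853 with 5826. The OB pool stood apart in several ways. It was counted with Cell Ranger 7.0.1 and another gene annotation, against Cell Ranger 6.0.0 for the other pools; 30.4% of its nuclei had no hashtag call, against 3.56% in DIO and 1.76% in chow. Non-neuronal nuclei made up 18.3% of its rapamycin and 38.0% of its vehicle nuclei, against 4.42% to 5.39% in the 4 samples of the DIO and chow pools. Between 64 and 71 barcodes of each pool also occurred in another pool. All results below are for neurons unless another set is named: 4580 rapamycin and 1441 vehicle nuclei in OB, 5711 and 4304 in DIO, and 4668 and 4957 in chow, in that order.

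The start of a TOP mRNA shows the pyrimidine run directly. RefSeq start windows on GRCm38.p6, 15 bases before to 15 bases after the annotated start, were at hand for 60 members. The motif CTTTC, a C followed by pyrimidines, stood on the sense strand in 17 of these 60 members (28.3%) and on the antisense strand in 2 (3.33%), against 4.76% and 4.21% of 27025 genes with such a window. The windows below, read 5′ to 3′ on the gene's strand, show 4 members with the motif in capitals and 4 members without it whose values are discussed further on. In Rplp2 and Rpl38 the motif begins at the annotated start itself, and Rpl35 and Rps27 hold it 2 times.
Rplp2, chr7:141447636-141447665, plus strand: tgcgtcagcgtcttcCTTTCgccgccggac
Rpl38, chr11:114668565-114668594, plus strand: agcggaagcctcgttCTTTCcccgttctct
Rpl35, chr2:39005117-39005146, minus strand: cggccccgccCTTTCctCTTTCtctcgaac
Rps27, chr3:90213634-90213663, minus strand: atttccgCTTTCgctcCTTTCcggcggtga
Rps6, chr4:86857353-86857382, minus strand: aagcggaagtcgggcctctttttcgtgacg
Rpl26, chr11:68901551-68901580, plus strand: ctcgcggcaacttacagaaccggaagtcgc
Rpl5, chr5:107900513-107900542, plus strand: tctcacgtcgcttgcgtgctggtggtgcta
Rpl10, chrX:74270801-74270830, plus strand: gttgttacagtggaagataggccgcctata

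The Rps6 window holds a pyrimidine run around its start (cctctttttc) without these exact letters, so a missing CTTTC says only that this string is not in the window. Annotated starts can also lie some bases away from the start used in neurons.

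The members together gave less than 1% of nuclear RNA in every sample. They made up, rapamycin before vehicle, 0.232% and 0.212% of all UMIs in OB neurons, 0.156% and 0.136% in DIO neurons, and 0.190% and 0.196% in chow neurons. A single neuron held a median of 8 to 12 member UMIs, depending on the sample, and at most 0.416% of the neurons of a sample held none. Single members are therefore measured only as sums over nuclei, given below as CPM, the count of a gene scaled to the total UMIs of its sample, a level that is not corrected for gene length. A share is relative: fewer member transcripts and more of all other transcripts cannot be told apart.

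**Figure D1:**
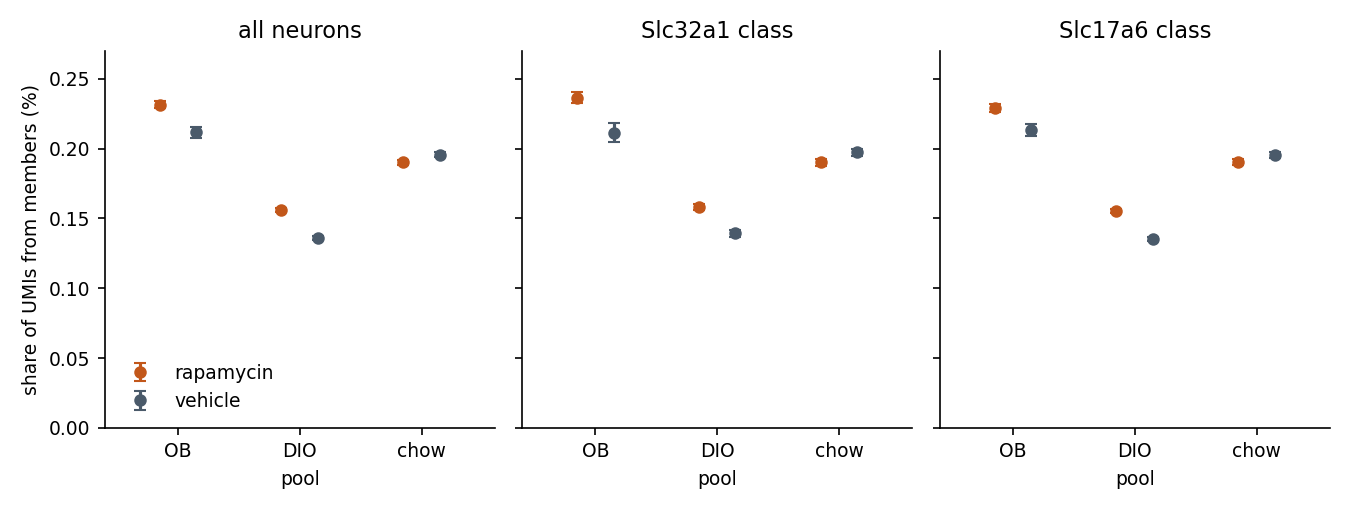
Share of UMIs that came from the members, in percent, with 95% counting intervals, in rapamycin (orange) and vehicle (grey) neurons of the 3 pools, for all neurons and for the Slc32a1 and Slc17a6 classes. Rapamycin lies above vehicle in OB and DIO and below it in chow in each panel, and the DIO pool is the lowest.

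Rapamycin was compared with vehicle within each pool. In DIO neurons the summed share was higher with rapamycin, by 0.20 on the log2 scale (95% counting interval 0.18 to 0.22). In OB neurons it was higher by 0.13 (0.10 to 0.16), and in chow neurons it was lower, at -0.04 (-0.06 to -0.03). The OB value depended on which nuclei were counted: over all OB nuclei, neuronal or not, it was -0.073 (-0.097 to -0.049). Calling OB nuclei by the ratio of their tags, which left 5313 rapamycin and 5332 vehicle nuclei in place of 5607 and 2323, moved the median over members in neurons to 0.25 from 0.12. The order of the treatments was the same in both transmitter classes. A cluster was put in a class when its CPM of that transporter gene was over 2 times that of the other. In the class of Slc32a1, the vesicular GABA transporter, the log2 ratio was 0.16 in OB, 0.18 in DIO and -0.05 in chow. In the class of Slc17a6, a vesicular glutamate transporter, it was 0.10, 0.20 and -0.04. The Slc17a6 class also held histaminergic and dopamine clusters, with only 8.55 and 3.12 CPM of Slc17a6.

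Most single members moved with the sum. Among members with at least 50 UMIs in both samples together, 72 of 77 had a higher CPM with rapamycin in DIO, where 59.5% of 15742 genes did, and 66 of 77 in OB, where 58.6% of 14015 genes did. In chow 24 of 78 did, against 39.7% of 15503 genes. The median log2 ratio of the members was 0.12 in OB, 0.20 in DIO and -0.04 in chow, and that of all genes was 0.04, 0.04 and -0.03. At least 1.2-fold higher were 20 of 77 members in OB (13.3% of all genes), 24 of 77 in DIO (13.5%) and 0 of 78 in chow (3.95%). The counting interval lay above 0 for 16 members in OB (10.5% of all genes), 47 in DIO (19.6%) and 0 in chow (5.7%), and below 0 for 0 in OB (5.44%), 0 in DIO (12.1%) and 6 in chow (9.59%). In DIO the 31 small-subunit members had a median of 0.25 and the 46 large-subunit members one of 0.18; in OB the medians were 0.07 and 0.14.

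**Figure D2:**
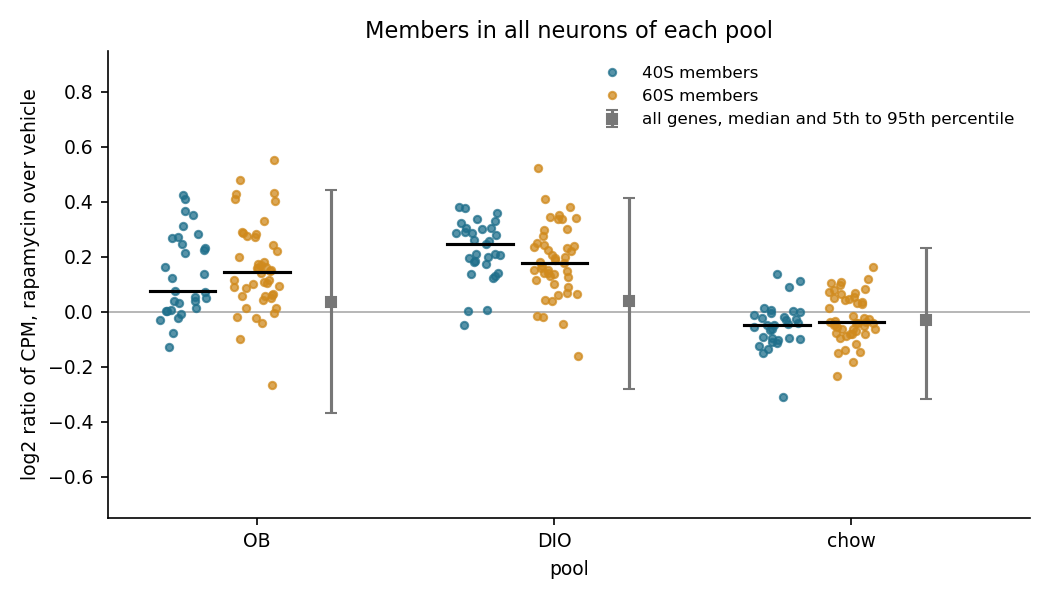
Log2 ratio of CPM, rapamycin over vehicle, for each member with at least 50 UMIs in all neurons of the OB, DIO and chow pools. Points are members of the small (40S) and large (60S) subunit with their medians as black lines, and grey squares with bars are the median and the 5th to 95th percentile of all genes. The members lie mostly above 0 in OB and DIO and around or just below it in chow, all within a narrow band.

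Rps6, the S6 kinase substrate, had 15.7 CPM with rapamycin and 12.2 CPM with vehicle in OB, 12.8 and 10.8 CPM in DIO, and 14.7 and 13.8 CPM in chow. Its log2 ratios were positive throughout, at 0.37 in OB, 0.25 in DIO and 0.09 in chow, and of their intervals that of DIO (0.04 to 0.46) alone lay above 0. Rpsa, a small-subunit protein also known as a laminin receptor, had 24.1 CPM with rapamycin and 18.0 CPM with vehicle in OB, 20.05 and 15.4 CPM in DIO, and 22.9 and 23.1 CPM in chow. Its ratios were 0.42 (0.11 to 0.75) in OB, 0.38 (0.21 to 0.55) in DIO and -0.01 (-0.17 to 0.14) in chow.

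The stalk proteins Rplp0, Rplp1 and Rplp2 form the flexible arm of the large subunit that recruits translation factors. Rplp1 had 22.0 CPM with rapamycin and 20.3 CPM with vehicle in OB, 7.60 and 6.19 CPM in DIO, and 10.6 and 12.5 CPM in chow. Its DIO interval lay above 0 (0.02 to 0.58) and its chow interval below 0 (-0.45 to -0.02). Rplp0 and Rplp2 differed in the same directions, with log2 ratios of 0.17 and 0.06 in OB, 0.13 and 0.22 in DIO, and -0.08 and -0.02 in chow.

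Rps2, a small-subunit protein that lines the mRNA entry channel, showed the split between pools in all 3 intervals. It had 47.2 CPM with rapamycin and 40.7 CPM with vehicle in OB, 27.4 and 22.9 CPM in DIO, and 40.7 and 44.7 CPM in chow. Its intervals lay above 0 in OB and DIO and below 0 in chow.

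In DIO the members with the highest ratios included Rpl8, which lies by the catalytic centre of the large subunit (0.52, 0.34 to 0.70), Rpl29 (0.41, 0.16 to 0.66), Rpl22 (0.38) and Rpsa (0.38). The lowest were Rpl10 (-0.16, -0.35 to 0.03), Rps19 (-0.05), Rpl36a (-0.04), Rpl11 (-0.02) and Rpl4 (-0.01), and all of these last 5 had intervals that held 0. In OB the highest were Rpl34 (0.55, 0.20 to 0.91), Rpl7 (0.48), Rpl17 (0.43), Rpl32 (0.43) and Rpsa (0.42). Rpl27 was the lowest there, at -0.27 (-0.65 to 0.13), followed by Rps27 (-0.13), Rpl26 (-0.10) and Rps23 (-0.08). In chow the highest were Rpl34 (0.16, -0.03 to 0.36), Rps3 (0.14), Rpl12 (0.12), Rps24 (0.11) and Rpl32 (0.11), each with an interval that held 0, and the lowest included Rplp1 (-0.23), Rpl35 (-0.18), Rpl23 (-0.15) and Rps23 (-0.15). Across the 77 members measured in all pools, Pearson's r of the ratios was 0.05 between OB and DIO, 0.04 between OB and chow and -0.21 between DIO and chow, as a description of members that share libraries. Of these 77 members 17 were higher with rapamycin in all 3 pools, 0 were lower in all 3, and 44 were lower in chow and higher in both OB and DIO. Of all genes, 58.6% were higher in OB, 59.5% in DIO and 39.7% in chow. No share of all genes for the combined patterns is given here.

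The X-linked members differed among themselves. Rps4x had log2 ratios of 0.23 in OB, 0.34 (0.09 to 0.59) in DIO and -0.10 in chow, and Rpl39 had 0.28, 0.16 and 0.07. Rpl36a stayed at 0.09, -0.04 and 0.03, and Rpl10, which joins the large subunit late in its assembly, had 0.20, -0.16 and -0.06, with intervals that all held 0. Rps27a, made as a fusion with ubiquitin, had 0.01 in OB, 0.32 (0.17 to 0.48) in DIO and 0.01 in chow. The motif CTTTC marked no separate group of ratios in chow, where members with it (n = 16) had a median of -0.02 and members without it (n = 41) one of -0.04. The medians were 0.20 and 0.11 in OB and 0.22 and 0.17 in DIO, with ranges that overlapped throughout.

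Tissue-restricted relatives of some members were at or near the limit of detection. Rpl10l and Rpl39l, testis relatives of Rpl10 and Rpl39, each gave at most 2 UMIs in any of the 6 samples. Rpl3l, the heart and skeletal muscle relative of Rpl3, gave 9 and 1 UMIs with rapamycin and vehicle in OB, 18 and 23 in DIO, and 23 and 25 in chow. At these counts a difference between treatments was not detectable; a count of 0 allows up to 0.508 CPM in the shallowest sample, OB vehicle, and up to 0.0881 CPM in the deepest, DIO rapamycin. Rps27l, a relative of Rps27 induced by p53, was measured at 6.16 and 5.93 CPM in OB, 4.76 and 4.22 CPM in DIO, and 6.23 and 6.25 CPM in chow.

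The 3 pools together were tested with edgeR, with pool as a block, in a fit of 17823 genes. Of 78 members 0 passed an adjusted p of 0.05, where 0.376% of all genes did, 18 of them higher and 49 lower with rapamycin. At an unadjusted p under 0.05 there were 8 of 78 members by edgeR's quasi-likelihood test, against 5.69% of all genes, and with DESeq2 there were 0 by either measure. Other edgeR settings gave from 0 members without the block (83 of 17324 genes) to 25 with tags called by their ratio (995 of 17730 genes). Of all 17823 genes DESeq2 called 0 at the adjusted p, and 179 had an unadjusted p under 0.05. Rpsa came closest, with a log2 fold change of 0.22 (SE 0.08) and a Benjamini-Hochberg adjusted p of 0.48 from edgeR, and Rps6 had 0.20 (SE 0.10) and an adjusted p of 0.84. The fitted fold was above 0 for 70 of 78 members, against 53.7% of all genes, with a median of 0.09 against 0.0088 for all genes. The members' median was 0.15 without the chow pool, 0.03 without the DIO pool and 0.08 without the OB pool. In the fits of the Slc32a1 class and of the Slc17a6 class, 0 members passed, where 0.0193% and 0.0827% of all genes did. In each of these fits 3 members had an unadjusted p under 0.05, against 4.28% and 5.33% of all genes.

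Gene length moved with these ratios. Members are short genes, with a median RefSeq length of 3175 bases against 27163 bases for expressed genes, and 68 of the 81 are under 5000 bases. In DIO the 65 measured members under 5000 bases had a median log2 ratio of 0.21, and the 1408 other genes under 5000 bases had one of 0.21 as well. In OB the medians were 0.12 and 0.08, and in chow -0.04 and -0.07. For genes over 100000 bases the medians were 0.00 in OB, -0.07 in DIO and 0.02 in chow, so the direction turned with length in DIO and in chow. The part of gene length in the members' ratios was not tested, and the length groups were chosen after the data were seen.

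**Figure D3:**
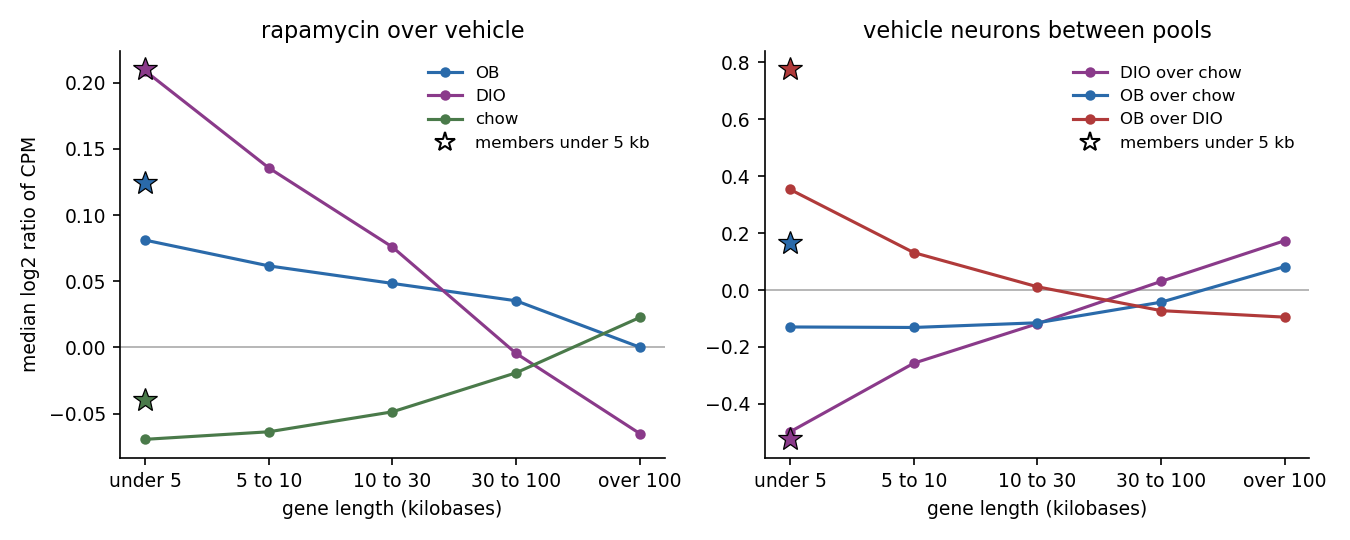
Median log2 ratio of CPM by gene length in kilobases, for other genes (lines) and for members under 5 kb (stars), for rapamycin over vehicle in each pool (left) and for vehicle neurons between pools (right). The DIO star lies on the DIO line at 0.21 in the left panel, and the DIO over chow star lies next to its line at the right. In OB over chow and OB over DIO the stars lie above the short genes.

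Related gene lists were counted in the same way, beside all genes, of which 58.6% were higher in OB, 59.5% in DIO and 39.7% in chow. In DIO, mitochondrial ribosomal proteins, which serve the separate ribosome inside mitochondria, were higher with rapamycin in 70 of 77 genes (median log2 ratio 0.19), and nuclear genes of oxidative phosphorylation in 75 of 79 (0.18). Other genes with known or likely TOP mRNAs, such as translation elongation factors, were higher in 14 of 19 (0.12) and ribosome biogenesis genes in 27 of 35 (0.08), while mTORC1 and its effectors were split, with 8 of 17 higher. In OB the counts for these 5 lists, in this order, were 54 of 77, 62 of 80, 15 of 19, 21 of 34 and 11 of 17, and in chow 21 of 77, 18 of 81, 4 of 19, 6 of 35 and 6 of 17. The Rsk family of ribosomal protein S6 kinases was higher in 6 of 8 genes in OB, 2 of 8 in DIO and 5 of 8 in chow. In the edgeR fit over the 3 pools 0 genes of these 6 lists passed, where 0.376% of all genes did.

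Transcripts encoded by the mitochondrial genome went the other way in DIO, with 1 of 10 higher, against 59.5% of all genes, and a median of -0.28. In the fit over the 3 pools 1 of 12 passed edgeR's test and was lower, where 0.376% of all genes passed. Mitochondrially encoded transcripts made up 0.0163% and 0.0188% of UMIs with rapamycin and vehicle in OB neurons, 0.00596% and 0.00727% in DIO, and 0.00651% and 0.00676% in chow. Markers of glial and vascular cells summed to 0.0335% and 0.0313% in OB neurons, 0.0253% and 0.0225% in DIO and 0.0204% and 0.0204% in chow. The part of these in the members' ratios was not tested.

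Depth also moved with the share. In each of the 6 samples the members' share was lower in nuclei with more UMIs, among nuclei of at least 2000: with rapamycin and vehicle in DIO it was 0.194% and 0.172% in nuclei of 2000 to 4000 UMIs, 0.160% and 0.145% at 4000 to 8000, and 0.133% and 0.120% above 8000. The median depth of DIO neurons was 5389 UMIs with rapamycin and 6139.5 with vehicle. Within these 3 depth groups the DIO log2 ratio was 0.18, 0.14 and 0.15, each with an interval above 0. In OB, where the median depths were 3219 and 3732 UMIs, the ratios were 0.01 (-0.03 to 0.06), 0.12 (0.07 to 0.16) and 0.08 (-0.03 to 0.20). In chow they were -0.08, -0.04 and -0.02, the last with an interval that held 0 (-0.05 to 0.01).

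**Figure D4:**
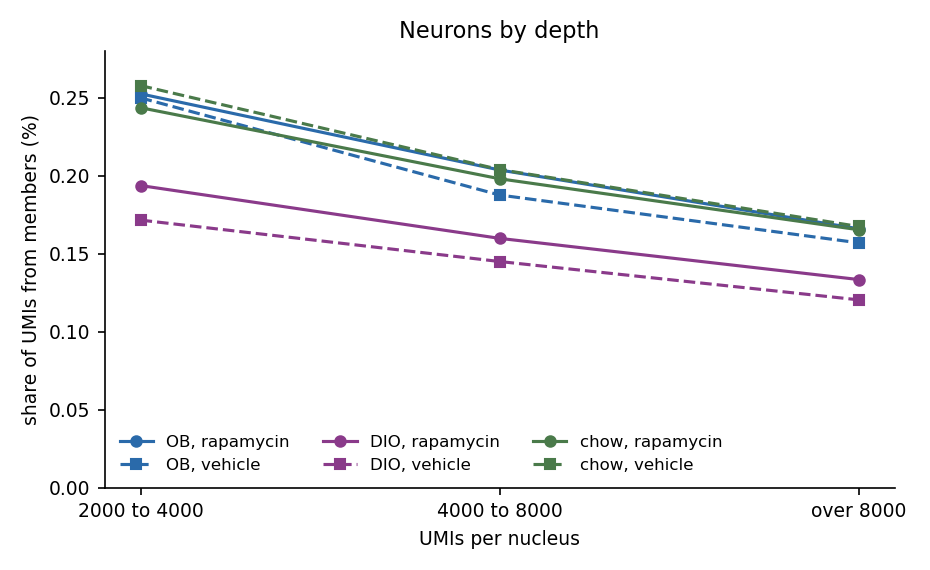
Share of UMIs from the members, in percent, in neurons grouped by UMIs per nucleus, for rapamycin (solid, circles) and vehicle (dashed, squares) in each pool. All 6 lines fall with depth, the DIO lines lie below the others, and the OB and chow lines nearly coincide.

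The difference in DIO was spread over the neurons. Of 40 neuronal clusters with enough nuclei, 40 had a higher share with rapamycin, with log2 ratios of 0.03 to 0.37, and the interval lay above 0 in 30. In OB 22 of 29 clusters were higher (-0.77 to 0.51) and in chow 9 of 40 (-0.34 to 0.33). The interval lay above 0 in 13 OB clusters and below 0 in 2, and above 0 in 2 chow clusters and below 0 in 5. Clusters of a pool share the same mice and libraries and are not replicates. Neurons with Agrp, which drive feeding, had shares of 0.264% and 0.227% with rapamycin and vehicle in OB, 0.177% and 0.150% in DIO, and 0.215% and 0.211% in chow, and Pomc neurons, which suppress feeding, had 0.261% and 0.223%, 0.177% and 0.163%, and 0.227% and 0.202%. The log2 ratio of Pomc neurons was 0.23 (-0.03 to 0.49) in OB, with 20 vehicle nuclei, 0.12 (0.0027 to 0.24) in DIO and 0.17 (0.04 to 0.29) in chow. In chow, Pmch neurons had 0.33 (0.14 to 0.51) from 22 and 32 nuclei, and Agrp neurons 0.03 (-0.08 to 0.14). Trh neurons in OB had 0.261% with rapamycin and 0.184% with vehicle, and their log2 ratio was 0.51 (0.37 to 0.65) from 88 and 86 nuclei.

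Vehicle neurons of the pools were compared next, on the 27514 genes common to the feature lists. The summed share was 0.136% in DIO against 0.196% in chow, a log2 ratio of -0.52 (-0.54 to -0.51). It was 0.215% in OB, so OB stood above chow by 0.13 (0.10 to 0.16) and above DIO by 0.65 (0.62 to 0.68). In rapamycin neurons the ratios were -0.28 for DIO over chow, 0.30 for OB over chow and 0.59 for OB over DIO. These ratios and those within pools use the same vehicle samples and are not independent of each other. A pool was also 1 library, so condition and library cannot be told apart.

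DIO was lower than chow for nearly every member. The CPM was lower in DIO for 76 of 77 members, against 54.2% of 15459 genes, and at least 1.2-fold lower for 65, against 26.8%. The interval lay below 0 for 72 members, against 32.6% of all genes, and above 0 for 0. Rps21 had the largest difference, with 19.3 CPM in DIO against 42.5 CPM in chow (log2 ratio -1.14, -1.28 to -0.998). Rplp1 had 6.21 CPM in DIO and 12.5 CPM in chow (-1.01), and Rps2 had 22.9 and 44.9 CPM (-0.97). Rpl11, which together with Rpl5 and the 5S RNA can bind the p53 regulator Mdm2, was the member that was not lower, with 35.3 CPM in DIO and 33.7 CPM in chow (0.07, -0.06 to 0.19). Rpl4 (-0.06), Rpl23a (-0.07), Rpl19 (-0.16) and Rpl26 (-0.19) were the next smallest. The other genes under 5000 bases had a median of -0.50 against -0.52 for members of that length, and genes over 100000 bases one of 0.17. Within the 3 depth groups the DIO over chow ratio of the sum was -0.59, -0.49 and -0.48.

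OB against chow depended on depth. Of 77 members 59 were higher in OB, where 44.4% of 14536 genes were, and the median log2 ratio of members was 0.17 against -0.04 for all genes. Within nuclei of 2000 to 4000, 4000 to 8000 and over 8000 UMIs, however, the summed share in OB and chow vehicle neurons was 0.250% and 0.258%, 0.188% and 0.204%, and 0.157% and 0.167%, so that OB lay at or below chow, by -0.04 (-0.10 to 0.01), -0.12 (-0.16 to -0.08) and -0.09 (-0.19 to 0.00). OB over DIO kept its direction in these groups, at 0.54, 0.37 and 0.38, and 74 of 77 members were higher in OB than in DIO, where 48.4% of 14478 genes were.

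Some members differed in OB far beyond the rest. Rpl15 had 35.4 CPM in OB against 10.5 CPM in chow and 8.74 CPM in DIO, log2 ratios of 1.76 (1.499 to 2.01) and 2.02 (1.75 to 2.29). Rpl13a had 6.19 CPM in OB against 20.6 CPM in chow and 14.1 CPM in DIO, ratios of -1.74 (-2.26 to -1.25) and -1.19 (-1.72 to -0.70). Rapamycin-treated neurons gave levels of the same order, with 42.8 CPM of Rpl15 and 8.23 CPM of Rpl13a in OB. Ribosomal protein genes have many processed copies in the genome, and the symbols of 16 such pseudogenes (of 13 members) are in the feature list of chow and DIO and of 9 (of 8 members) in that of OB. Reads shared between a member and such a copy may be assigned differently by the 2 annotations, so condition and counting cannot be told apart here. In addition, the coordinates of 28 of the 81 members overlap another RefSeq gene, Rpl5, Rpl19, Rps2 and Rpsa among them. Strands were not compared in this count, so how far the levels of these members are uncertain is not known.

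Neuron classes were compared over all 6 samples, with clusters made without the members. The Slc32a1 class and the Slc17a6 class had nearly the same share, 1.01 ± 0.01 and 0.998 ± 0.007 relative to all neurons of the sample (SD, n = 6 samples from 3 libraries). With sample as a block, edgeR called 2 of 77 members, where 25.6% of 16285 genes passed. Rps21 was higher in the Slc32a1 class, with a log2 fold of 0.13 (SE 0.05) and an adjusted p of 0.037 from edgeR, in 6 of 6 samples. Rpl41, the smallest ribosomal protein, was lower, at -0.12 (SE 0.04) and an adjusted p of 0.029 from edgeR, in 5 of 6. Neither difference was firm, since Rps21 lost its call under 8 of 8 other settings and Rpl41 under 5 of 8. In the same fit the Slc32a1 class was higher for 18 of 81 nuclear oxidative phosphorylation genes and lower for 0, and 8 of 77 mitochondrial ribosomal proteins were higher and 2 lower, where 12.8% of all genes were higher.

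Named neuron types differed slightly in the summed level. Relative to all neurons of the same sample, Pomc neurons were at 1.12 ± 0.07, Agrp neurons at 1.11 ± 0.03 and Sim1/Otp neurons, which include vasopressin and oxytocin cells of the paraventricular type, at 1.08 ± 0.05 (SD, n = 6 samples each), above 1 in 6 of 6 samples. Neurons of the supramammillary type, marked by Lmx1a and Lmx1b, were at 0.949 ± 0.051, below 1 in 6 of 6. Kiss1/Tac2 (1.07 ± 0.10, n = 5), Hcrt (1.02 ± 0.03), histaminergic (1.02 ± 0.10) and Trh neurons (1.01 ± 0.08, n = 6 each) and Pmch neurons (0.978 ± 0.108, n = 4) lay on both sides of 1 or close to it. Neighbours in this order overlapped in their spread. Depth differed between types as well. Median UMIs in vehicle neurons of OB, DIO and chow were 4330.5, 6740 and 6488.5 for the supramammillary type. For Agrp neurons they were 3293, 5137.5 and 5821, and for Pomc neurons 3251.5, 5691 and 6011. For Sim1/Otp neurons they were 3998, 6529 and 6225, and for all neurons 3732, 6139.5 and 5876. The part of depth in the levels of types was not tested. The means of all 40 clusters over their samples lay between 0.892 and 1.15, while single samples ran from 0.773 to 1.78. The cluster with the widest spread, led by Col19a1 and Ttn (1.06 ± 0.35, SD, n = 6), was above 1 in 1 of 6 samples.

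**Figure D5:**
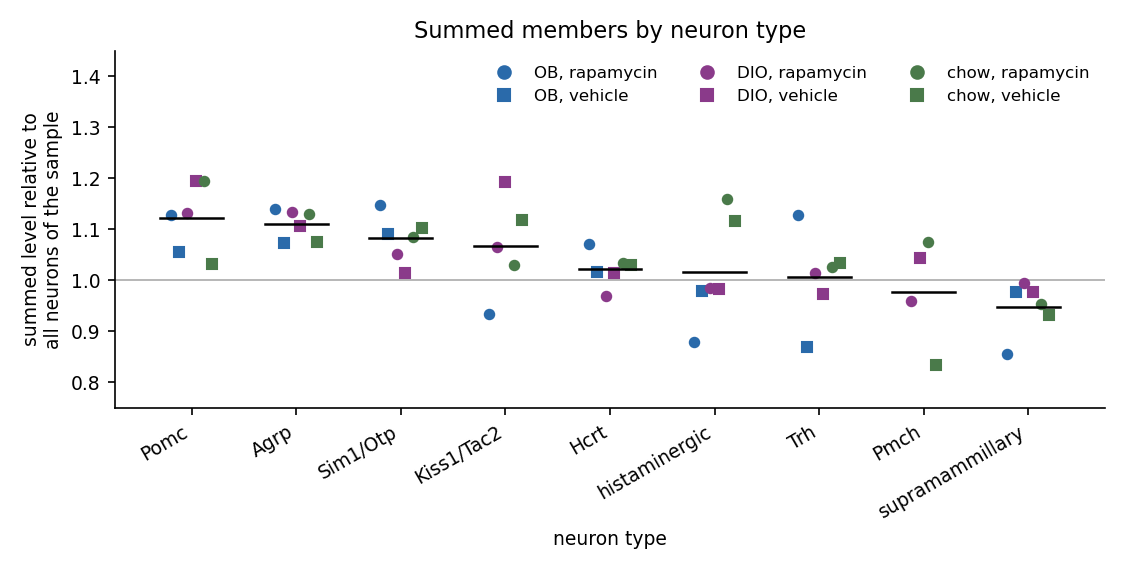
Summed member share of each named neuron type divided by that of all neurons of the same sample, for each sample with at least 20 nuclei of the type (circles rapamycin, squares vehicle, colour the pool), with the mean as a black line. All samples of Pomc, Agrp and Sim1/Otp neurons lie above 1 and all of supramammillary neurons below it.

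Against these even sums a few single members stood out, tested with edgeR for each type against all other neurons. In Agrp neurons 2 of 77 members were higher and 0 lower, where 18.7% of 14192 genes passed in either direction. Rpl26, a protein at the rim of the exit tunnel that in human cells also binds p53 mRNA, had in Agrp neurons and in the other neurons 49.4 and 20.1 CPM in OB rapamycin, 24.6 and 22.6 in OB vehicle, 36.9 and 14.3 in DIO rapamycin, 28.6 and 13.0 in DIO vehicle, 30.4 and 14.0 in chow rapamycin, and 25.4 and 14.9 in chow vehicle. It was higher in Agrp neurons in 6 of 6 samples, from 121 UMIs in all, although only slightly in OB vehicle, where the type gave 5 UMIs. Its log2 fold was 0.96 (SE 0.16) with an adjusted p of 0.00011 from edgeR, and it kept its call under 3 of 3 other settings. Rps25 was higher too (0.62, SE 0.20) but lost its call under all 3.

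In Pomc neurons 2 of 77 members were higher and 1 lower, where 16.3% of 14341 genes passed. Rpl26 was higher again, in 5 of 6 samples (0.69, SE 0.21, adjusted p of 0.018 from edgeR), with 0 UMIs in the sixth, OB vehicle, and Rpl23a was higher as well (0.57, SE 0.20). Rps6 was lower in Pomc neurons in 6 of 6 samples (-0.90, SE 0.29, adjusted p of 0.024 from edgeR), on 21 UMIs in all. Among these samples OB vehicle gave 0 Rps6 UMIs from a sum of 66325 UMIs, too few to show a direction. Rpl26 and Rps6 kept their calls under 1 of 3 other settings each, and Rpl23a under 0 of 3.

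In Trh neurons 1 of 77 members was higher, where 16.1% of 14291 genes passed. This was Rpl5, the 5S RNA partner, which had in Trh neurons and in the other neurons 52.8 and 32.8 CPM in OB rapamycin, 42.5 and 31.1 in OB vehicle, 71.4 and 40.1 in DIO rapamycin, 60.3 and 36.3 in DIO vehicle, 65.6 and 45.1 in chow rapamycin, and 52.6 and 47.1 in chow vehicle. It was higher in 6 of 6 samples, and the log2 fold was 0.60 (SE 0.09) with an adjusted p of 2.7e-07 from edgeR, kept under 3 of 3 other settings. RefSeq coordinates of Rpl5 overlap those of the gene Dipk1a by 964 bases. Their strands were not compared, so whether reads from the overlap could belong to either is not settled here.

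In Sim1/Otp neurons 9 of 77 members were higher and 0 lower, where 29.4% of 14205 genes passed and 13.7% were higher. Rpl10 led them, with 26.7 and 22.1 CPM in OB rapamycin, 23.0 and 19.1 in OB vehicle, 20.003 and 13.4 in DIO rapamycin, 25.3 and 14.7 in DIO vehicle, 28.2 and 17.7 in chow rapamycin, and 29.8 and 18.3 in chow vehicle, the type before the other neurons. It was higher in 6 of 6 samples, with a log2 fold of 0.60 (SE 0.14) and an adjusted p of 0.0010 from edgeR that held under 3 of 3 other settings. The other 8 had folds of 0.20 to 0.52 and included Rps20, Rpl9, Rpl6, Rps19, Rpl41, Rpl3 and Rps18, and with DESeq2 Rpl10 alone of the 9 passed.

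In histaminergic neurons 3 of 77 members were higher (Rpl34, Rpl18 and Rpl10a) and 2 lower (Rpl23a and Rps23), where 31.6% of 13993 genes passed, and in Pmch neurons, fitted in the 4 samples with at least 20 such nuclei, Rps23 alone of 78 was lower, where 15.5% of 16297 genes passed. DESeq2 called 0 of these. In Kiss1/Tac2, Hcrt and supramammillary neurons edgeR called 0 members (the Kiss1/Tac2 fit had 5 samples), where 11.7%, 19.3% and 20.3% of all genes passed, and DESeq2 called 0 as well. At an unadjusted p under 0.05 there were 4, 9 and 5 members in these types by edgeR, against 21.3%, 28.2% and 29.8% of all genes. Across the 9 named types 0 to 9 members passed, in each type a smaller share than of all genes.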

How the data were processed

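Per the file headers and the deposited tables, the authors gave raw UMI counts per gene and nucleus (whole numbers, not normalized) and counts of 2 hashtags per pool, made with Cell Ranger 6.0.0 for chow and DIO and 7.0.1 for OB. The submitters' processing notes name version 6.0.0 and mm10, and a deposited key gives the treatment of each tag. Whether intronic reads were counted is not given in the sources used here. The filter asked for 500 UMIs, 300 genes and a mitochondrial share of at most 5% per nucleus. Tags were called with HTODemux (Seurat 5.3.0, quantile 0.99), which leaves out doublets and nuclei without a call. Nuclei were clustered without the members (scanpy 1.11.5, 3000 variable genes, 40 components, resolution 2, 54 clusters). A cluster was neuronal if its median over 6 pan-neuronal markers exceeded 0.5 of the level in all other nuclei and it bore no non-neuronal name. The 4 transmitter genes of that marker list were left out of this rule, and 1 cluster of 99 nuclei led by Pax7 and Tbx19 was set aside, both after the data were seen, as was the resolution. Types were named from at least 3 markers. Dopamine neurons had too few nuclei and are not analysed as a type. Doublets were removed by tags only.

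Counts were summed per sample and set of nuclei. Within and between pools the log2 ratio of CPM has an exact binomial interval (95%). Totals for comparisons between pools used common genes, except within depth groups, where each pool's own gene list was used. edgeR 4.0.16 (quasi-likelihood, TMM scaling, filterByExpr, Benjamini-Hochberg over all genes) tested rapamycin over 6 sums with pool as a block, and classes and types with sample as a block; DESeq2 1.42.0 was an alternative. The paired samples of a block come from the same pool or sample, per the labels. Nothing in the labels says how many mice a sample holds, so p-values measure the spread between these samples only. Tested on simulated data, edgeR found 77% of 1.5-fold and 93% of 2-fold changes among 17933 genes in the rapamycin fit, and 84% and 99% among 16370 genes in the class fit. Of its calls 3.41% were false in the rapamycin fit and 5.67% in the class fit. Changes under 1.5-fold are not covered by these values. Totals ranged from 5900865 to 34060955 UMIs in the neurons of a sample.

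Members named are those with the 5 highest and 5 lowest ratios in each pool, in the class comparison and in vehicle DIO over chow, plus 20 fixed ones, and, after their values were seen, the members called in a neuron type and Rpl15. Some members that this rule picks are not reported here. The members and lists were chosen with earlier results of these data known. Gene lengths and starts are from RefSeq on GRCm38.p6, which matched all 81 symbols for length and 60 for start windows.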

Additional observations from a re-analysis of the deposited data

Results flagged for a closer look

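The summed share of the members was higher with rapamycin in OB and DIO and lower in chow, and these differences between pools were not tested, since each pool holds 1 sample per treatment. In all neurons the log2 ratio of rapamycin over vehicle exceeded that of chow by 0.17 in OB and by 0.24 in DIO. In the Slc32a1 class it did so by 0.22 in OB and 0.24 in DIO, and in the Slc17a6 class by 0.14 in OB and 0.24 in DIO. Of the members named here, Rps2 differed by 0.35 between OB and chow and by 0.40 between DIO and chow, and Rplp1 by 0.53 between DIO and chow, with counting intervals on opposite sides of 0.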

How the results depend on the processing

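The direction of the members' median within pools held under 8 of 8 other settings in DIO (0.16 to 0.21) and in chow (-0.05 to -0.018), and under 7 of 8 in OB. With all nuclei in place of neurons, 24 of 77 OB members were higher and their median was -0.090. No share of all genes is given for this setting. In it Rpl32 (-0.055), Rpl4 (-0.14), Rpl7 (-0.21) and Rps6 (-0.11) turned to lower. Non-neuronal nuclei were 18.3% of OB rapamycin and 38.0% of OB vehicle nuclei. Calling tags by their ratio, which gave 5332 in place of 2323 OB vehicle nuclei, moved the OB median to 0.25, and Rpl27 to 0.0021 (from -0.27), and the median of vehicle OB over chow to 0.081. TMM scaling moved the medians to 0.17 in DIO and -0.018 in chow. Nuclei of 2000 to 8000 UMIs gave 0.16 in DIO and 0.091 for vehicle OB over chow.

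Across the pools 0 members were called in any alternative, with or without the pool as a replicate block. Of all genes at most 0.37% were called higher and 0.86% lower in these. At an unadjusted p under 0.05, edgeR gave 25 of 78 members with tags called by ratio (995 of 17730 genes). It gave 20 without the chow pool (1799 of 17050) and 3 with nuclei of 2000 to 8000 UMIs (743 of 16827). Without the DIO pool there were 2 (710 of 16975), and without the OB pool 1 (522 of 17353). In the class comparison, members called higher and lower numbered 0 and 4 with nuclei of 2000 to 8000 UMIs (9.86% and 11.7% of all genes). They numbered 0 and 0 with DESeq2 (7.33% and 9.08%) and without the replicate block (2.88% and 5.38%), and 0 and 2 with no filter (7.96% and 10.3%). Leaving out a pool gave 0 to 1 higher (7.59% to 11.5% of all genes) and 0 to 1 lower (9.65% to 12.3%). In types, DESeq2 called 1 higher in Agrp (6.93% of all genes) and in Sim1/Otp (10.7%). It called 0 higher and 0 lower in Pomc (4.46% and 6.51%), histaminergic (11.05% and 12.4%) and Pmch neurons (5.38% and 4.71%). Without a filter 1 was higher in Agrp (4.45% of all genes), and 1 was higher and 1 lower in Pomc (3.38% and 6.98%). In histaminergic neurons 0 were higher and 2 lower (6.94% and 12.5%), and in Sim1/Otp 2 were higher and 1 lower (7.16% and 11.3%). In the supramammillary type 2 were lower (7.81%). With nuclei of 2000 to 8000 UMIs, 1 was higher in Agrp (7.03% of all genes). In either direction 0 were called in Pomc (4.79% and 9.13%) and histaminergic neurons (5.86% and 10.6%). This setting could not be fitted for Pmch. The cause of these changes was not tested. Single members of types rest on few UMIs, such as 21 for Rps6 in Pomc neurons.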

Other observations

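Non-neuronal nuclei that remained after the NeuN sort were summed in the same way. In OB, astrocytes had a member share of 0.296% with rapamycin and 0.309% with vehicle (425 and 274 nuclei), and cells of the tanycyte or ependymal type had 0.349% and 0.340% (173 and 155 nuclei). The median depths of these sets were 1390 to 1521 UMIs, and OB neurons of 500 to 2000 UMIs had shares of 0.335% with rapamycin and 0.349% with vehicle. In DIO, astrocytes had 0.164% with rapamycin and 0.205% with vehicle (131 and 91 nuclei), a log2 ratio of -0.33 (-0.50 to -0.15) that ran opposite to the neurons of that pool. In chow, astrocytes had 0.189% and 0.185% (143 and 119 nuclei), a ratio of 0.03 (-0.13 to 0.19). Pericytes of OB, with 5 and 10 nuclei, had 1.62% and 2.51%. These sets were singled out after their values were seen, and the differences between cell types were not tested.

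Neurons without a hashtag call, which came from rapamycin or vehicle mice but were assigned to neither, were most numerous in OB. The 2588 such OB neurons had a share of 0.188%, against 0.226% in the 6021 neurons with a call, at median depths of 2972 and 3330 UMIs. Calling OB nuclei by tag ratio gave 5332 vehicle nuclei in place of 2323, and 5313 rapamycin nuclei in place of 5607. The share of OB vehicle neurons given above thus covers only the nuclei that HTODemux called. In DIO 220 uncalled neurons had 0.148%, against 0.147% in called ones, and in chow 90 had 0.192% against 0.193%.

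Among clusters without a type name, the one led by Fam19a4 and Ppp1r17 had the highest summed level, 1.15 ± 0.04 relative to all neurons (SD, n = 6 samples), followed at 1.12 ± 0.07 by a cluster led by Tbx3os1, Ros1 and Npy5r. The lowest were a cluster led by E2f7 and Prkch (0.892 ± 0.114, n = 5) and one led by Npas1 and Lhx6 (0.906 ± 0.048, n = 6), which was below 1 in each of its samples. In the order named, these clusters had median depths of 3474.5, 4496, 6100 and 6391 UMIs over nuclei of all pools. The part of depth in their levels was not tested.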
